A study of Gallus gallus with 4 samples.

Results

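The 4 genes described here move calcium in muscle cells or hold it. They are ATP2A2, a calcium pump of the sarcoplasmic reticulum, PLN (phospholamban), the inhibitor of that pump, PVALB (parvalbumin), a calcium buffer, and CALM2, one of the genes for calmodulin. They were taken by gene symbol and were measured by 5 features of 45220 on the array, of which PVALB has 2 and the others 1 each. The phospholamban feature carries the older platform symbol PLB, which RefSeq lists as a synonym of PLN. All 5 features had a value on every array, and the 4 genes belong to the 3494 named genes of which that is true. The genes were chosen because of their ratios on these same arrays, so the values are a description, and no p-value is given for a member although all were part of the fit over all genes.

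The muscle came from the breast of male broilers, all of 1 line, and was studied on 4 two-colour arrays. Per the labels, each array held Cy3-labelled RNA of low feed efficiency in channel 1 and Cy5-labelled RNA of high feed efficiency in channel 2. All birds were caged and fed individually on a diet of corn and soy with about 20.5% protein and 3280 kcal per kg, received no treatment, and were ranked by gain per feed from 6 to 7 weeks of age. The sources used here do not give whether birds were pooled. With 0 arrays of swapped dye, the effect of a dye and that of the group cannot be told apart. Each value is the log2 of the ratio between the dyes of an array, set so that the median feature of the array is 0, and summaries are mean ± SD (n = 4). A value below 0 likely means a lower level in the high-efficiency muscle, because the labels put that muscle in channel 2, which is usually the numerator. The numerator is not stated, and with Cy3 on top every direction below turns around. The arrays give ratios and no levels, so the tissue label could not be checked against muscle markers and levels could not be compared between genes.

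A muscle fibre contracts when calcium leaves the sarcoplasmic reticulum through the ryanodine receptor and relaxes when a SERCA pump returns it. ATP2A2 encodes the pump of slow and cardiac muscle and, as another splice form, that of the endoplasmic reticulum of most cells, while fast fibres use the product of ATP2A1. Phospholamban is a small membrane protein that lowers the calcium affinity of the ATP2A2 pump until protein kinase A or calmodulin-dependent kinase phosphorylates it. In mammals it is typical of heart, slow fibres and smooth muscle. Parvalbumin binds calcium in the cytosol of fast fibres and speeds their relaxation. Calmodulin is a calcium sensor of all cells that switches on kinases and the phosphatase calcineurin. Chicken breast muscle is made up almost wholly of fast fibres.

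The inhibitor, the pump and the parvalbumin buffer were lower in the likely direction of high over low efficiency, and calmodulin was higher. PLN differed most, 4.06-fold lower, followed by PVALB, 1.94-fold lower, and ATP2A2, 1.68-fold lower, and CALM2 was 1.67-fold higher. Each of the 4 genes had the same sign on 4 of 4 arrays. In these bulk samples, fewer cells of a type and less RNA per cell cannot be told apart.

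**Figure D1:**
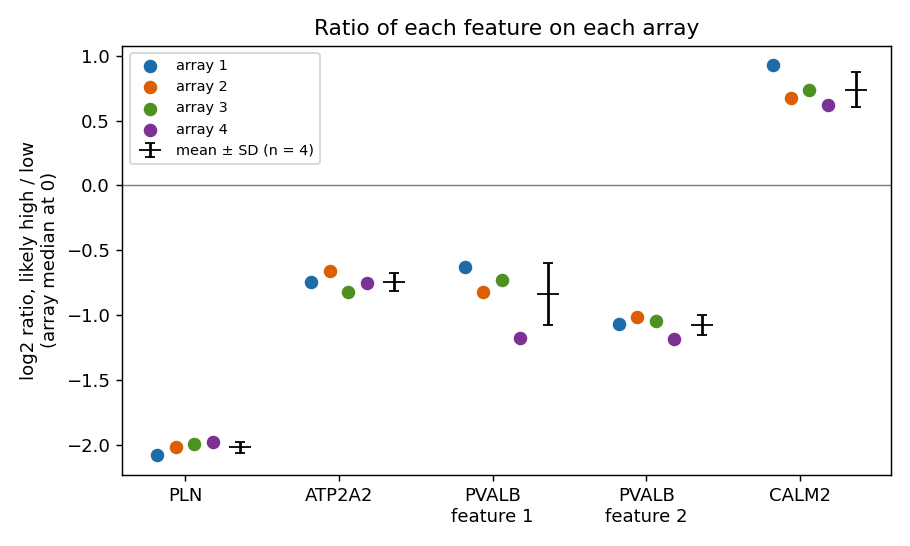
Log2 ratio of each of the 5 features (y axis, array median at 0) on each of the 4 arrays (coloured points), with mean ± SD beside them (n = 4). PLN lies near -2 on every array, ATP2A2 and both PVALB features lie between -0.63 and -1.19, and CALM2 lies between 0.62 and 0.93.

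PLN, the pump inhibitor, stood at -2.08, -2.02, -1.999 and -1.98 on arrays 1 to 4. In linear terms, the ratio was 0.236, 0.246, 0.250 and 0.253. The 4 arrays were nearly alike, with a mean of -2.02 ± 0.04. A smaller SD was found in 5.58% of the named genes. On single arrays PLN ranked between 54th and 63rd from the lowest of 3494 genes, and by its mean it ranked 10th. Over all features with a value on every array, named and unnamed, its feature ranked 95th from the lowest of 31722.

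ATP2A2, the pump itself, stood at -0.75, -0.66, -0.82 and -0.75. All 4 arrays were below 0 and close together, with a mean of -0.75 ± 0.07. By its mean it was 183rd from the lowest gene, and on single arrays it ranked from 258th to 329th. PLN lay further from 0 than its target pump on each array. The difference between them, PLN minus ATP2A2, was -1.34, -1.36, -1.18 and -1.23, with a mean of -1.28 ± 0.09. This is a 2.42-fold lower ratio of inhibitor transcript to pump transcript in the likely direction. Such a difference within an array does not depend on where the array's zero is set.

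**Figure D2:**
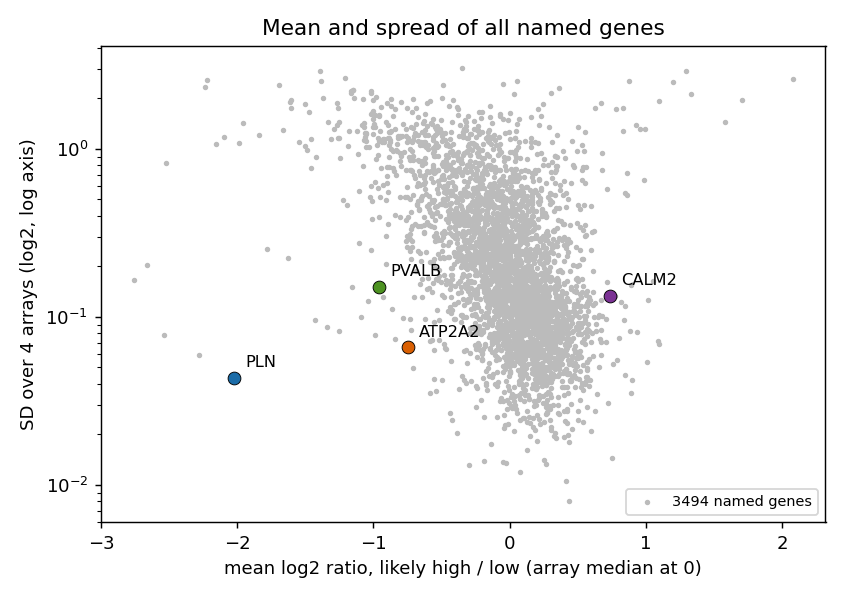
Mean log2 ratio (x axis, array median at 0) against the SD over the 4 arrays (y axis, log scale) for 3494 named genes (grey), with the 4 members in colour. PLN combines a mean of -2.02 with an SD of 0.04. Grey genes such as MYH15 (-2.28 ± 0.06) and CSRP3 (-2.53 ± 0.08) likewise combine a low mean with a small SD. ATP2A2 and PVALB lie left of 0, at -0.75 and -0.96, and CALM2 right of it, at 0.74.

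PVALB, the cytosolic buffer, was measured by 2 features that differed in size and spread. The first feature stood at -0.63, -0.82, -0.73 and -1.17, with a mean of -0.84 ± 0.24. The second stood at -1.07, -1.01, -1.05 and -1.19, with a mean of -1.08 ± 0.08. Both were below 0 on every array. They were close on array 4, where they differed by 0.01, and furthest apart on array 1, by 0.44. Their average, used as the value of the gene, was -0.96 ± 0.15 and ranked 101st from the lowest. The probe sequences were not analysed here, so the part of the transcript that each feature binds is not known.

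PVALB and ATP2A2 are neighbours in the order of the members and did not separate clearly. PVALB minus ATP2A2 was -0.10, -0.25, -0.06 and -0.43, a mean of -0.21 ± 0.17. By its first feature PVALB was lower than ATP2A2 on 2 of 4 arrays (-0.09 ± 0.25), and by its second on 4 of 4 (-0.33 ± 0.09). PLN, by contrast, lay below PVALB by at least 0.80 on every array (-1.06 ± 0.18).

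CALM2 was the member above 0, at 0.93, 0.68, 0.73 and 0.62. All 4 arrays were above 0, array 1 highest, with a mean of 0.74 ± 0.13. It ranked 38th from the highest gene by its mean and between 71st and 173rd on single arrays. The distance from ATP2A2 to CALM2 was -1.48 ± 0.16 and that from PVALB to CALM2 -1.70 ± 0.10. Several chicken genes encode calmodulin, and cross-hybridisation between their transcripts was not tested.

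The size of each value depended on the zero chosen, its sign did not. As deposited, the ratios had array medians of -0.19, -0.49, -0.58 and -0.52. Without centring, CALM2 stood at 0.74, 0.19, 0.16 and 0.10, with a mean of 0.30 ± 0.30. Array 1 was then well above the other arrays, and the mean was a 1.23-fold difference. With the least variable features at 0, CALM2 was 0.58 ± 0.13. PLN, PVALB and ATP2A2 moved away from 0 under both choices, to -2.46 ± 0.13, -1.40 ± 0.27 and -1.19 ± 0.20 without centring. Every sign held on all 4 arrays under these 3 choices.

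**Figure D3:**
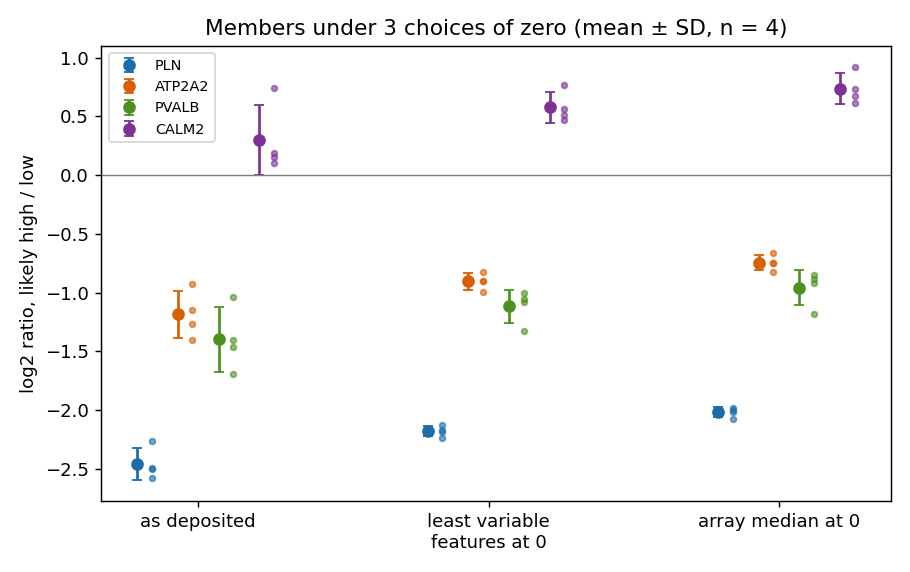
Log2 ratio (y axis) of the 4 member genes under 3 choices of zero (x axis), with mean ± SD (large points and bars, n = 4) and single arrays (small points). A choice of zero shifts all genes of an array alike, so the order of the 4 genes cannot change. CALM2 comes closest to 0 without centring, at 0.30.

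The genes most like each member were found by the root mean square difference of their 4 array values among the named genes. Nearest to PLN were MYH15, a myosin heavy chain listed as MYH6 on the platform (-2.28 ± 0.06, a difference of 0.26), slow myosin-binding protein C, MYBPC1 (-1.78 ± 0.25, 0.34), and leiomodin 2, LMOD2, which elongates actin filaments (-1.63 ± 0.22, 0.42). Nearest to ATP2A2 were the sugar phosphate exchanger SLC37A2 (-0.71 ± 0.05, 0.05), the phagocytic receptor TIMD4 (-0.72 ± 0.08, 0.08) and the LIM protein FHL2 of heart and muscle (-0.78 ± 0.10, 0.09). The gene nearest to PLN was thus further off than any of the 3 named beside ATP2A2. Nearest to PVALB were the gap junction protein GJB6 (-0.91 ± 0.21, 0.08), the heart-type lactate dehydrogenase subunit LDHB (-0.99 ± 0.08, 0.08) and chromogranin B, CHGB (-0.93 ± 0.13, 0.12). Nearest to CALM2 were the ubiquitin-conjugating enzyme UBE2Q2 (0.71 ± 0.07, 0.07), gamma-synuclein, SNCG (0.82 ± 0.12, 0.10), and PHKB, a subunit of phosphorylase kinase (0.65 ± 0.10, 0.10). The likeness rests on 4 arrays and is given as a description.

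The wider calcium system was covered by lists of 118 genes in all, of which 30 had a value on every array. A further 75 had no named feature, 7 lacked a value on some array, and 6 had only features at a ratio of 1, which carry no measured ratio. Among the 26 measured genes other than the 4 members, 3 rose, 3 fell and 20 did not pass limma's moderated test at an adjusted p of 0.05. Over all 3494 genes, 18.5% rose and 6.1% fell, which is 24.6% in either direction. The counts of the other calcium genes, 3 and 3 of 26, are few, and their median was -0.08 against 0.01 over all genes. With the 4 members counted in, the median over the 30 genes was -0.16. The balance moved with the zero. With the least variable features at 0, 1 of the 26 rose and 5 fell, beside 6.9% and 11.8% of all genes, and without centring 0 rose and 12 fell, beside 0.258% and 32.7%. Without array 1, 1 rose and 2 fell, beside 299 and 105 of all 3494 genes. Without array 4, 1 rose and 1 fell, beside 144 and 54 of all genes. Without array 2 or array 3, 0 rose and 1 fell, when 0 of all genes rose and 4 or 5 fell.

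**Figure D4:**
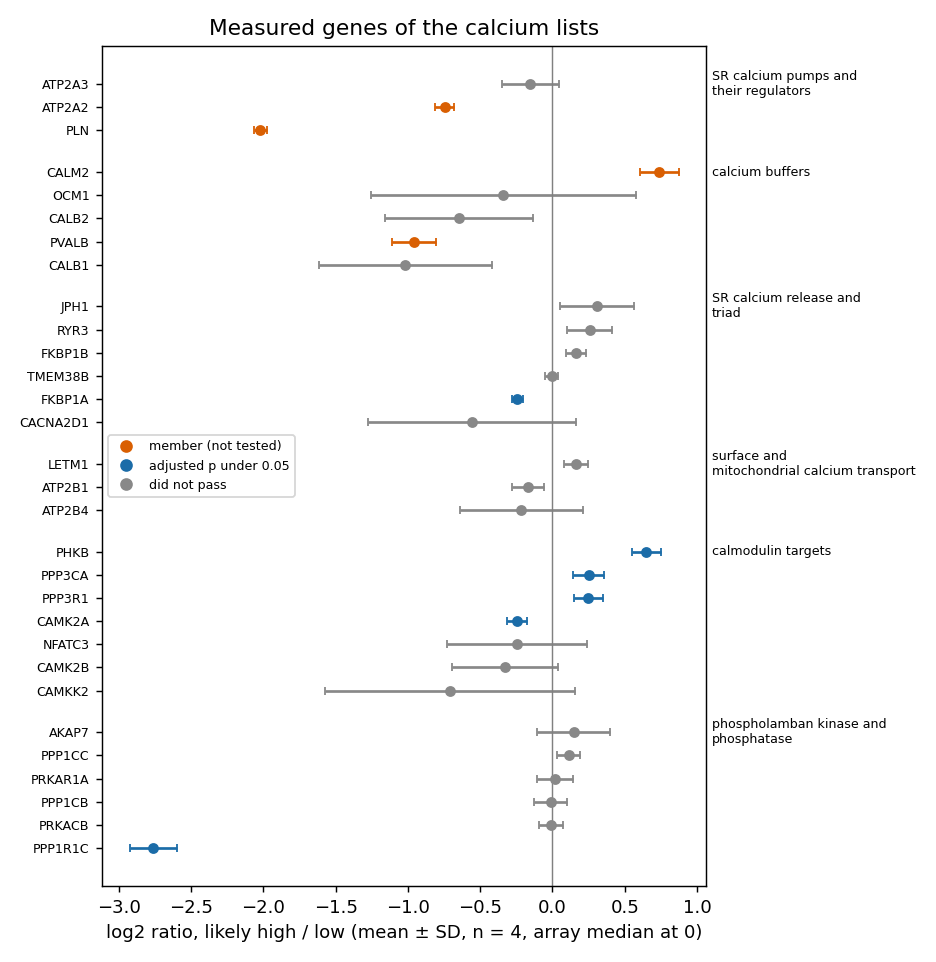
Mean log2 ratio ± SD (x axis, n = 4, array median at 0) of the 30 measured genes of the calcium lists, grouped by list. Members are orange, other genes at adjusted p under 0.05 blue and the rest grey; PLN and PPP1R1C stand apart on the lower side and CALM2 and PHKB lead on the higher side.

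In the pump list, 1 other gene was measured, which RefSeq names as the third SERCA gene. ATP2A3, listed as SERCA on the platform, stood at 0.05, -0.42, -0.18 and -0.07, and did not pass (-0.15 ± 0.20, adjusted p = 0.299 by limma). Its arrays lie on both sides of 0, above those of ATP2A2 on each array. SERCA is also the name of the pump family. The match to ATP2A3 rests on a RefSeq synonym alone, and the probe was not checked. The fast pump ATP2A1 and sarcolipin, SLN, an inhibitor related to phospholamban, had no named feature and were not analysed here.

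Among the other calcium buffers 3 genes were measured, and 0 passed by limma's adjusted test. At an unadjusted p under 0.05 there were 2, both below 0, beside at least 24.6% of all genes. Calbindin, CALB1, stood at -1.02 ± 0.60 (adjusted p = 0.0549) and calretinin, CALB2, at -0.65 ± 0.51 (adjusted p = 0.108). CALB1 passed with the zero at the least variable features (limma, adjusted p = 0.0484) and on the deposited ratios (0.0275), and CALB2 on the deposited ratios (0.0366) and without array 1 (0.0482). Both had a larger spread than either PVALB feature. CASQ2, a calsequestrin that stores calcium inside the reticulum, sarcalumenin, SRL, and the slow and cardiac troponin C, TNNC1, were at a ratio of 1 and have no value here. The fast troponin C, TNNC2, did not have a value on all arrays.

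Of the calcium release and triad genes 6 were measured, of which 1 fell and 0 rose, beside 6.1% and 18.5% of all genes. FKBP1A, a protein that steadies the ryanodine receptor, was lower on all 4 arrays, at -0.25, -0.28, -0.19 and -0.25 (-0.24 ± 0.04, adjusted p = 0.0246 by limma). Its relative FKBP1B, which binds the cardiac receptor, was at 0.16 ± 0.07 (adjusted p = 0.079), and the receptor gene RYR3 at 0.26 ± 0.15 (adjusted p = 0.0789). Triadin, TRDN, and the calcium channel subunit CACNG1 were at a ratio of 1. The call of FKBP1A was lost when any 1 array was left out (adjusted p from 0.0696 to 0.119).

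At the cell surface and in mitochondria 3 genes were measured and 0 passed by limma. LETM1 and ATP2B1 had an unadjusted p under 0.05, as had at least 24.6% of all genes. The mitochondrial ion exchanger LETM1 stood at 0.16 ± 0.08 (adjusted p = 0.0995) and the plasma membrane calcium pump ATP2B1 at -0.17 ± 0.11 (adjusted p = 0.129). Both were within 0.2 of 0, closer than ATP2A2. With the least variable features at 0, ATP2B1 passed (-0.33, adjusted p = 0.0341).

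Among the targets of calmodulin 7 genes were measured, of which 3 rose and 1 fell, beside 18.5% and 6.1% of all genes. Their median was -0.25, and 4 of the 7 were below 0. PHKB, the beta subunit of the phosphorylase kinase that starts glycogen breakdown and holds calmodulin as a subunit, was higher at 0.78, 0.58, 0.67 and 0.57 (0.65 ± 0.10, adjusted p = 0.00892 by limma). All 4 arrays were above 0 and below those of CALM2. The calcineurin subunits PPP3CA, catalytic (0.25 ± 0.11, adjusted p = 0.0489), and PPP3R1, regulatory (0.25 ± 0.10, adjusted p = 0.0465), rose by less. CAMK2A, a calmodulin-dependent kinase subunit, fell (-0.25 ± 0.07, adjusted p = 0.0322), and CAMK2B (-0.33 ± 0.37, adjusted p = 0.219) and the upstream kinase CAMKK2 (-0.71 ± 0.86, adjusted p = 0.239) did not pass. Without centring both calcineurin subunits were below 0 (-0.19 each), and PHKB did not pass (0.21, adjusted p = 0.248 by limma). With the least variable features at 0, PHKB passed (adjusted p = 0.0182) and PPP3CA and PPP3R1 did not (0.302 and 0.289). PHKB did not pass without array 2 (adjusted p = 0.0718) or array 3 (0.0697). PPP3CA, PPP3R1 and CAMK2A did not pass when any 1 array was left out (adjusted p from 0.0778 to 0.165).

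Phospholamban is switched by protein kinase A and by protein phosphatase 1, and 6 genes of that list were measured. Of these 6, 1 fell and 0 rose, beside 6.1% and 18.5% of all genes. PPP1R1C, an inhibitor subunit of protein phosphatase 1, fell to -2.70, -2.58, -2.79 and -2.97 on the 4 arrays (-2.76 ± 0.16, adjusted p = 0.00193 by limma). It was lower than PLN on each array and passed by limma without each array in turn (adjusted p from 0.0178 to 0.0407). Its mean was the lowest of all 3494 genes. The list was chosen with earlier results of these data known, so the call of PPP1R1C is a description. The phosphatase catalytic subunit PPP1CC (0.11 ± 0.08, adjusted p = 0.193) and the kinase anchor AKAP7 (0.15 ± 0.25, adjusted p = 0.4) did not pass. The phosphatase subunit PPP1CB (-0.01 ± 0.11) and the protein kinase A subunits PRKACB (-0.01 ± 0.08) and PRKAR1A (0.02 ± 0.12) lay close to the array median.

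ATP2A2 and PLN belong to the list of slow and cardiac-type genes, and 14 others of that list were measured. Of these 14, 11 fell, 0 rose and 3 did not pass, beside 6.1% of all genes that fell. The list was chosen with earlier results of these data known, so the count is a description. Without arrays 1 to 4 in turn, 10, 2, 3 and 8 of the 14 fell, beside 105, 4, 5 and 54 of all 3494 genes. Each time, 13 of the 14 were below 0. The median of the 14 genes on single arrays ran from -1.06 to -1.19. The lowest were the slow light chain MYL3 (-2.66 ± 0.20) and the muscle LIM protein CSRP3 (-2.53 ± 0.08), and the highest MYH7 (0.72 ± 0.58) and the slow tropomyosin TPM3 (-0.18 ± 0.07), which did not pass. PLN lay below this median on each array and ATP2A2 above it. These genes share arrays and dyes with PLN and ATP2A2, and what part a different share of slow fibres has in the ratios of PLN and ATP2A2 was not tested.

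PVALB is a gene of fast fibres, and 4 others of the fast list were measured. Of these 4, 1 rose and 2 fell, beside 18.5% and 6.1% of all genes. Fast troponin T, TNNT3, rose (0.41 ± 0.07, adjusted p = 0.0122, but -0.03 without centring), PFKM (-0.73 ± 0.31, adjusted p = 0.0296) and myotilin, MYOT (-0.36 ± 0.14, adjusted p = 0.0339), fell, and the fast light chain MYL1 did not pass (-0.20 ± 0.28, adjusted p = 0.314). PFKM had 2 features, of which 1 was set aside at a ratio of 1, so its value is that of the other alone. Without array 1, TNNT3 and MYOT passed and PFKM did not (adjusted p = 0.0674), and without array 2, 3 or 4 none of the 4 passed. PVALB was lower than these 4 genes by its mean. A median of -0.28 over 4 genes, with array medians from -0.19 to -0.41, describes the fast list poorly, since 14 of its 22 genes had no named feature.

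**Figure D5:**
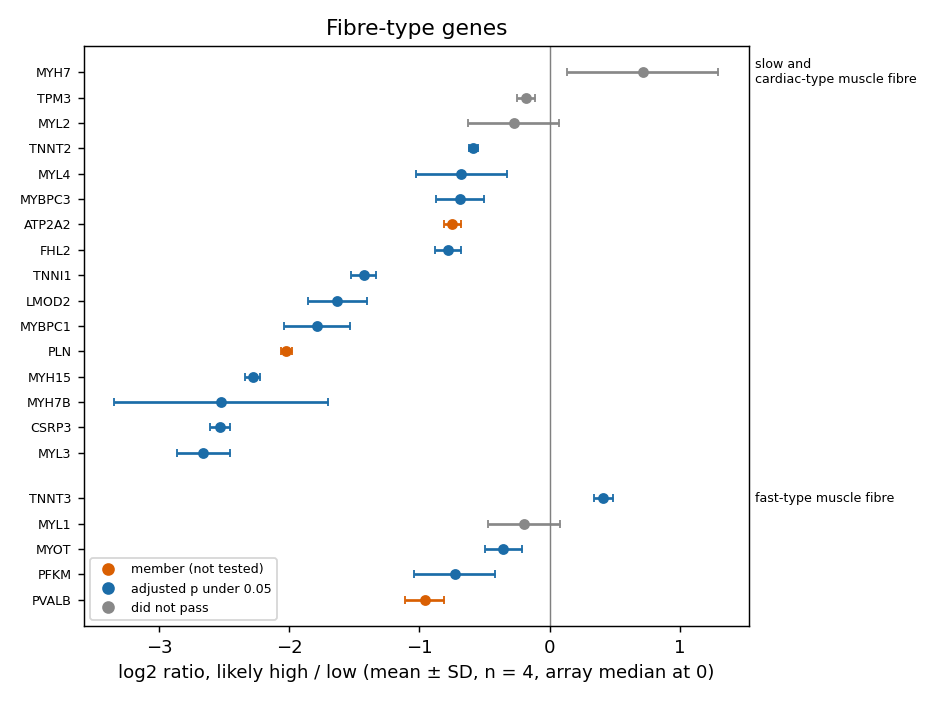
Mean log2 ratio ± SD (x axis, n = 4, array median at 0) of the measured slow and cardiac-type genes (upper group) and fast-type genes (lower group). PLN (orange) is the 5th lowest of the 16 slow-type genes and ATP2A2 (orange) the 10th lowest, and PVALB (orange) is the lowest of the 5 fast-type genes at -0.96.

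PLN is also a gene of smooth muscle, and ATP2A2 and CALM2 are used by most cell types. Of 6 measured smooth muscle and pericyte markers, 1 rose and 1 fell, beside 18.5% and 6.1% of all genes. An unadjusted p under 0.05 was found in 4 of the 6, and in at least 24.6% of all genes. The list median was -0.14, with array medians from -0.35 to -0.0015. The highest were the smooth muscle actin ACTG2 (0.38 ± 0.09), which was at -0.06 without centring, and the smooth muscle myosin MYH11 (0.08 ± 0.07, not passing), and the lowest were the pericyte receptor PDGFRB (-0.44 ± 0.34, not passing) and the actin ACTA2 (-0.36 ± 0.09). With the zero at the least variable features, 0 of the 6 rose and 2 fell, beside 6.9% and 11.8% of all genes. Of the 5 endothelial markers 0 passed by limma and 1 had an unadjusted p under 0.05, from CLDN5 (-0.28 ± 0.23) and FLT1 (-0.10 ± 0.53) to CDH5 (-0.01 ± 0.09) and EGFL7 (0.05 ± 0.07).

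Blood cell markers lay mostly below the array median. Of 6 measured, 5 were below 0, all 6 had an unadjusted p under 0.05, 1 rose and 1 fell after adjustment, and the list median was -0.44. Over all genes, 18.5% rose and 6.1% fell after adjustment. The share of all genes at an unadjusted p under 0.05 was not counted. It is larger than the 24.6% that passed after adjustment, since genes such as CALB1 had an unadjusted p under 0.05 and did not pass. By how much is not known, so the unadjusted count of the list cannot be weighed against it. The lowest were the T cell gene CD3E (-0.66 ± 0.43, adjusted p = 0.0718) and the myeloid factor SPI1 (-0.54 ± 0.29, adjusted p = 0.0489), and the highest lysozyme, LYZ (-0.25 ± 0.13, adjusted p = 0.0688), and the globin HBA1 (0.43 ± 0.02, but -0.0073 without centring). With the zero at the least variable features 1 rose and 3 fell, beside 6.9% and 11.8% of all genes. On the deposited ratios 0 rose and 5 fell, beside 0.258% and 32.7% of all genes. SPI1 did not pass when any 1 array was left out (adjusted p from 0.0563 to 0.153). Of 13 fibroblast and matrix markers 2 rose and 3 fell, from THBS2 (-1.22 ± 0.50) and fibronectin, FN1 (-0.60 ± 0.35, not passing), to decorin, DCN (0.28 ± 0.12, but -0.16 without centring), and periostin, POSTN (0.57 ± 0.04). POSTN was at 0.13 without centring and did not pass (adjusted p = 0.368 by limma). With the least variable features at 0, 1 of the 13 rose and 6 fell, beside 6.9% and 11.8% of all genes. Without centring 0 rose and 6 fell, beside 0.258% and 32.7%. Of 4 adipocyte markers the fatty acid carrier FABP4 (0.79 ± 0.06) and lipoprotein lipase, LPL (0.26 ± 0.08, but -0.19 without centring), rose, and SCD (-0.16 ± 0.48) and ADIPOQ (-0.05 ± 0.07) did not pass. FABP4 was at 0.35 without centring and did not pass (adjusted p = 0.0685 by limma). LPL and DCN did not pass with the zero at the least variable features (adjusted p = 0.225 and 0.239) or when any 1 array was left out (from 0.0616 to 0.163). THBS2 also did not pass by limma when any 1 array was left out (adjusted p from 0.0593 to 0.0912). Of 3 nerve markers 0 passed by limma and 0 had an unadjusted p under 0.05 (SOX10 -0.06 ± 0.38, MBP -0.03 ± 0.11, NEFM -0.25 ± 1.06). Without array 2 or without array 3, no marker of these 6 lists passed. The part of these cell types in the ratios of the 4 members was not tested.

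Genes next to the members in the RefSeq gene order were measured in 3 cases. IFT81 beside ATP2A2 (-0.37 ± 0.47, adjusted p = 0.257), IFT27 beside PVALB (0.06 ± 0.13, adjusted p = 0.541) and LOC421415 beside CALM2 (-0.42 ± 0.76, adjusted p = 0.4) did not pass limma's test. Both coding neighbours of PLN had no named feature.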

How the data were processed

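The deposited table holds log2 ratios of the 2 dyes for 45220 features on 4 arrays. That the deposited values are on a log2 scale was inferred from their ceiling of 16.61, which stands for a round ratio if it is read as a log2. Per the labels' protocols, 2 µg of Trizol-extracted RNA was used. The sources used here name no scanner software, background correction or normalization. Single dyes were not analysed here, and no filter on dim features was possible. The number of arrays limits the precision. Between pairs of arrays, the Pearson correlation of the log2 ratios was 0.20 to 0.31 over 3494 genes and 0.15 to 0.19 over 31722 features. The Spearman correlation over genes was 0.38 to 0.49.

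Between 4625 and 5576 values per array were empty and between 107 and 157 sat at the ceiling; both were treated as missing. A set of 160 features within 0.005 of a log2 ratio of 0 on at least 3 arrays was set aside, as spots that saturate in both dyes would be. Saturation of 1 dye cannot be seen in a ratio. The platform table named 4391 features, and 410 older symbols were updated through a unique RefSeq synonym (assembly GRCg7b, names only). A gene is the mean of its features that were measured on every array, and 201 genes had several.

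Arrays were set to a median of 0. With limma 3.58.1 (R 4.3.3), an intercept was fitted to 3494 genes and moderated by eBayes (two-sided, Benjamini-Hochberg at 0.05), and the script was tested on simulated data. The labels call the arrays biological replicates. Members, lists and the naming rule were chosen with earlier results of these data known. The rule named, besides the members, each calcium gene that passed and the 2 others of smallest p per list, the 3 genes nearest each member, and the 2 highest and 2 lowest of each marker list; others were chosen after their values were seen. Calls within lists were counted without the 4 members. Where a list count at an unadjusted p under 0.05 is given, the share of all genes at that p was not counted. That share is larger than the 24.6% of genes that passed after adjustment, by an amount not known. These list counts therefore cannot be weighed against it. Alternatives covered centring, scaling, quantile normalization, robust moderation, array weights, the features set aside, the average over features, missing values, the threshold, all features, and each array left out.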

Additional observations from a re-analysis of the deposited data

Results flagged for a closer look

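Of 71 genes checked, 3 had 1 array far from the other three by Dixon's criterion at 95%, which chance alone meets in about 1 of 20 groups. FKBP1B stood at 0.06 on array 1 against 0.19, 0.20 and 0.20 on the others (gap over range 0.893). JPH1, a junctophilin that holds the reticulum to the surface membrane, stood at 0.69 on array 1 against 0.17, 0.23 and 0.15 (0.853). TNNT3 stood at 0.31 on array 3 against 0.44, 0.46 and 0.44 (0.877). None of the 4 members met the criterion.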

How the results depend on the processing

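Each array is itself 1 pair of channels, so the test of the ratios against 0 already uses that pairing. No further pairing was possible because the arrays form a single group. The members kept their signs under every alternative run. As deposited, PLN, ATP2A2, PVALB and CALM2 were -2.46, -1.19, -1.40 and 0.30, and with the least variable features at 0 they were -2.18, -0.91, -1.12 and 0.58. Other alternatives moved them by less than 1 SD. PLN minus ATP2A2 moved by less than 1 SD under all alternatives, and a change of zero cannot move it. Of the 26 calcium genes other than the members, the 3 higher ones became 0 without centring and 0 to 1 without single arrays. They became 1 with the least variable features at 0, robust moderation, an adjusted p of 0.01 or all features. With values on at least 3 arrays, 1 of 29 genes was higher. With features at a ratio of 1 kept, 9 of 32 genes were higher. That set adds the genes set aside, for which a zero lies above the array median by construction. Of the 26, the 3 lower ones became 12 on the deposited ratios and 5 under least variable centring. They became 1 at an adjusted p of 0.01 or over all features, and 1 to 2 without single arrays. The median of -0.16 over all 30 was -0.60 as deposited, -0.32 with the least variable features at 0, and -0.0358 to -0.174 without single arrays. With features at a ratio of 1 kept it was -0.0105, over a set that also holds the genes set aside. PPP3CA and PPP3R1 turned to -0.19 each without centring. Over all genes, the median was 0.01, -0.43 as deposited and -0.15 under least variable centring. There 648 genes were higher and 213 lower, against 9 and 1142 as deposited, 241 and 414 under least variable centring, 130 and 41 at an adjusted p of 0.01, 171 and 58 over all features, and 0 to 299 and 4 to 105 without single arrays. The causes were not tested, apart from the shift that a centring gives all genes.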
